A study of Mus musculus with 11 samples.

Results

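The 36 genes described here belong to the unfolded protein response and to protein folding in the endoplasmic reticulum (ER). They were taken by symbol from a listed set that was chosen with earlier results of these data known. All 36 occur among the 31168 named genes of the count table, which holds RNA-seq counts of the distal ileum of mice. The libraries came from 5 dIEC mice and 6 WT mice, and each library is a piece of whole tissue. All 11 mice were H2-Ab1 fl/fl, that is homozygous for a conditional allele of H2-Ab1, and had received Dextran Sodium Sulfate, a polysaccharide that injures the intestinal lining. dIEC mice also carried Villin:Cre, in which the villin promoter drives Cre recombinase in intestinal epithelial cells, and WT mice were Cre-negative per the sample labels. H2-Ab1 codes for a chain of the antigen-presenting MHC class II complex, so the comparison asks how these genes stand in the ileum of mice with and without this deletion in the epithelium. The sources used here do not give age, sex, dose or length of treatment.

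Secretory and membrane proteins are folded in the ER by chaperones and disulfide isomerases, and molecules that fail to fold are returned to the cytosol and degraded. When unfolded proteins accumulate, 3 kinds of sensor in the ER membrane signal to the nucleus: IRE1 proteins (Ern1 and Ern2), which splice the Xbp1 mRNA, ATF6, which is cut to release a transcription factor, and PERK (Eif2ak3), which slows translation and favours that of Atf4. XBP1 and ATF6 raise the transcription of chaperones and degradation factors, and ATF4 that of amino acid and stress genes. In the intestine, Paneth, goblet and plasma cells secrete heavily and carry a large ER.

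Of the 36 genes, 35 averaged at least 1 CPM, that is 1 count per 1000000 counts of a library after scaling by TMM factors. The exception was Trib3, a pseudokinase gene induced by ATF4, with 0 to 20 counts in a library. Of those 35, Chac1 did not pass the filter on low counts, and 34 were tested within the fit over all genes. Libraries held 6603965 to 9681698 counts. Of these, 3 ribosomal rows took 29.3 to 48.6% in dIEC libraries and 26.4 to 42.7% in WT libraries, and the Lars2 row took 3.11 to 5.31% of a library. The targeted gene H2-Ab1 had 39.0, 23.0, 17.4, 33.1 and 16.8 CPM in dIEC replicates 1, 3, 5, 6 and 11, against 54.9, 97.3, 47.2, 111.2, 107.8 and 77.9 CPM in WT replicates 2, 4, 7, 8, 9 and 12, with no overlap between the groups (two-sided exact permutation p = 0.00216). Its edgeR log2 fold change was -1.68 ± 0.28 (SE, adjusted p = 0.363; DESeq2 adjusted p = 4.18e-05). The 15 epithelial markers, all detected, summed to 3247 to 4421 CPM in dIEC libraries (median 4042) and to 2633 to 4704 CPM in WT libraries (median 2958). Goblet cell markers summed to 5642 to 7602 CPM in dIEC and to 4683 to 7747 CPM in WT, and Paneth cell markers to 2485 to 5153 CPM in dIEC and to 2097 to 6258 CPM in WT. The 12 smooth muscle markers summed to 1453 to 3608 CPM in dIEC and to 2577 to 5349 CPM in WT. In such bulk samples fewer cells of a type and less RNA per cell cannot be told apart. A pair of libraries stood apart: dIEC replicate 1 in several of the genes below and in smooth muscle markers, of which it had the least, and WT replicate 8 in absorptive enterocyte markers, of which it had 9084 CPM against 2045 to 4344 CPM in the other WT libraries.

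None of the 34 tested genes passed edgeR's quasi-likelihood test after adjustment over all 15911 genes (0 higher and 0 lower in dIEC), where 0.00628% of all genes passed. At an unadjusted p under 0.05, 4 were higher in dIEC (Xbp1, Atf4, Dnajb11 and Herpud1), against 4.86% of all genes, and 0 were lower, against 5.79%. Because the members were chosen with earlier results known, counts beside these shares do not test for an excess. DESeq2 passed 1 of the 34, Xbp1, at an adjusted p of 0.0311, against 0.0691% of all genes. Log2 fold changes of dIEC over WT were above 0 for 31 of the 34, against 48.8% of all genes tested, and their median was 0.15, against -0.0073 over all genes. The genes below 0 were Ern1, Ern2 and Pdia6. With libraries scaled by their size alone, all genes tested had a median of -0.22 and the 34 genes one of -0.06, with 10 above 0. The distance between the medians was thus 0.15 with TMM factors and 0.16 without them. With ribosomal rows and Lars2 left out and TMM factors kept, the median of the 34 was again 0.15, with 31 above 0.

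**Figure D1:**
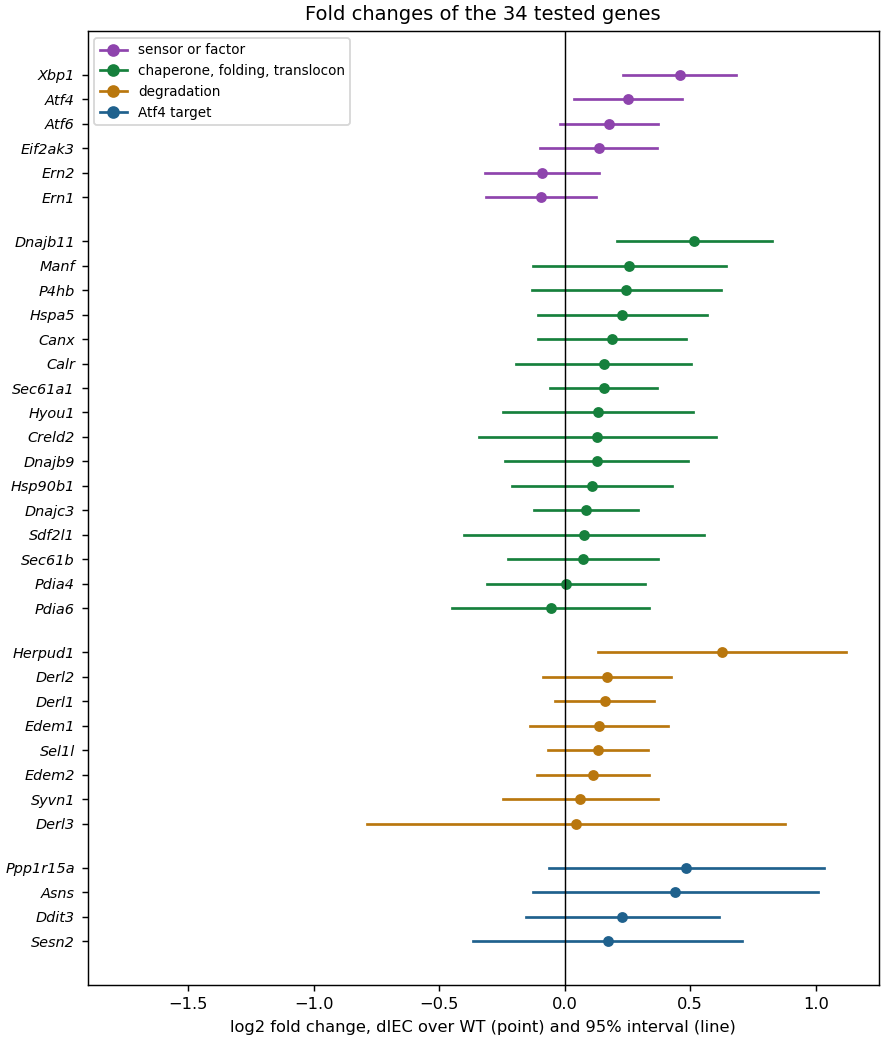
Log2 fold change of dIEC over WT (points, horizontal axis) with its 95% interval (lines) for the 34 tested genes, grouped by role and ordered within a role. Points lie between -0.09 (Ern1) and 0.63 (Herpud1), 31 of 34 lie right of 0, and the intervals of Xbp1, Atf4, Dnajb11 and Herpud1 do not reach 0.

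The sensors and their transcription factors comprised 6 genes, with a median log2 fold change of 0.16. Xbp1, whose spliced mRNA encodes the transcription factor, was the gene of the 36 whose groups did not overlap (1 gene; 0.233% of all genes tested were higher in dIEC without overlap). It had 93.3, 78.1, 92.0, 100.5 and 83.1 CPM in dIEC replicates 1, 3, 5, 6 and 11, and 54.5, 68.2 and 71.4 CPM as the lowest, median and highest value in WT. Every dIEC library exceeded every WT library, with dIEC replicate 6 highest of all, and WT replicates 4 and 2 lowest.

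Xbp1 averaged 89.4 ± 8.82 CPM in dIEC (SD, n = 5) and 65.1 ± 6.82 CPM in WT (n = 6). The log2 fold change was 0.46 ± 0.11 (SE; edgeR adjusted p = 0.427), a 1.37-fold difference. The two-sided exact permutation p of this gene alone was 0.00216, the smallest possible with 5 and 6 libraries. Over 18 other settings of the fit the log2 fold change ran from 0.23 with library size alone to 0.50, and the adjusted p from 0.0311 to 0.713. It passed in 2 of them, DESeq2, where 0.0691% of all genes passed, and edgeR without WT replicate 8 (adjusted p = 0.0421). Without that library 319 of all genes passed, against 1 in the reported fit. The gene occupies positions 5520659 to 5525893 of chromosome 11, plus strand (GRCm38), and counts per gene do not separate its spliced from its unspliced mRNA.

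**Figure D2:**
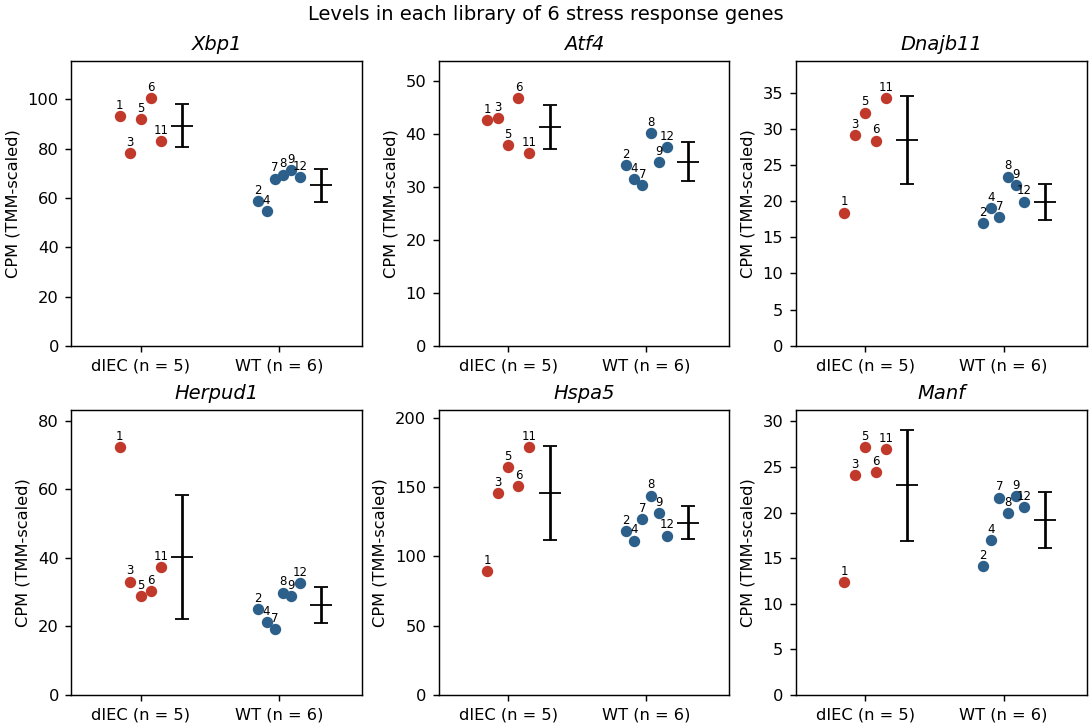
CPM (vertical axes, from 0) of Xbp1, Atf4, Dnajb11, Herpud1, Hspa5 and Manf in each library, dIEC in red on the left and WT in blue on the right, with replicate numbers and, in black, the mean and SD of each group. In Xbp1 the groups do not overlap, and dIEC replicate 1 is the lowest of all libraries in Hspa5 and Manf and the highest in Herpud1.

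Atf4, the transcription factor downstream of PERK, had 42.7, 43.0, 37.9, 46.8 and 36.4 CPM in dIEC replicates 1, 3, 5, 6 and 11, against 30.3, 34.4 and 40.2 CPM as the lowest, median and highest in WT. Replicates 1, 3 and 6 of dIEC lay above the highest WT library, WT replicate 8, and the groups overlapped in the others. Its log2 fold change was 0.25 ± 0.10 (SE; edgeR adjusted p = 0.429; exact permutation p = 0.0281). With libraries scaled by size alone it was 0.05. Control of ATF4 is known to act largely on translation, which was not measured.

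Of the sensors, Atf6 averaged 39.4 ± 2.995 CPM in dIEC (SD, n = 5) and 34.9 ± 3.24 CPM in WT (n = 6), with an exact permutation p of 0.0476 and a log2 fold change of 0.18 (edgeR adjusted p = 0.494). Eif2ak3, the PERK kinase, averaged 17.4 ± 1.94 CPM in dIEC and 15.9 ± 1.71 CPM in WT. Ern1, the widespread IRE1 form, averaged 29.9 ± 3.28 CPM in dIEC and 31.9 ± 3.22 CPM in WT. Ern2, the IRE1 form of mucosal epithelium, averaged 18.7 ± 1.63 CPM in dIEC and 19.9 ± 2.37 CPM in WT. For Eif2ak3, Ern1 and Ern2 the groups differed by less than their libraries spread (p = 0.182, 0.379 and 0.392, exact permutation).

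Chaperones, folding enzymes and translocon subunits comprised 16 genes, of which 15 had a log2 fold change above 0 (median 0.13) and 1, Dnajb11, an unadjusted edgeR p under 0.05. Among all genes tested, 48.8% lay above 0 and 10.7% had such a p in either direction, 4.86% being higher in dIEC. Many genes of this class are known to carry an ER stress response element (ERSE) near their start, which nuclear factor Y and ATF6 or XBP1 bind. RefSeq promoters (250 bases before the start, GRCm38.p6) were at hand for 30 of the 36 genes. Ern2, Atf6, Hyou1, Manf, Sec61a1 and Derl1 had no entry and were not searched. The letters CCAAT and, after 9 bases of any kind, CCACG, searched on both strands, occurred in 9 of the 30 (30.0%) and in 35 of all 27025 genes with a promoter entry (0.13%). Of the 9, 7 were chaperones or folding enzymes and 2 were degradation genes. The matches are shown because they mark which of the 30 hold these exact letters. Each is read along the motif from 5′ to 3′, with the fixed letters in capitals, and Hsp90b1 holds 2:
Hspa5: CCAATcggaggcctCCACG
Hsp90b1, nearer the start: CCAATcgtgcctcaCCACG
Hsp90b1, farther: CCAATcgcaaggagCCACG
Calr: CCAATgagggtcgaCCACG
Canx: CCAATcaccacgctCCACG
Dnajc3: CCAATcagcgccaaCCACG
Pdia6: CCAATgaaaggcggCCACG
Creld2: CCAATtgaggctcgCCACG
Syvn1: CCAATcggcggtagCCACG
Derl3: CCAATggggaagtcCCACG

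The Hspa5 match lies 65 to 47 bases before the start. Its place in the 250 bases at chr2:34771840-34772089 (GRCm38.p6, plus strand) is in capitals, and these are the letters of the promoter of the most studied target of the response.
Hspa5: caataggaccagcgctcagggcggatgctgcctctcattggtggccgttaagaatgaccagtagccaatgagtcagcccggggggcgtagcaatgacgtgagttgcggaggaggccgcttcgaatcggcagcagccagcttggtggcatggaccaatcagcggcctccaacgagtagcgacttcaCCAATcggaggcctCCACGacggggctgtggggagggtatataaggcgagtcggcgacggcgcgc
The other letters searched were ATTGG and, after 1 base of any kind, CCACG (ERSE-II), TGACGTGG (the core bound by XBP1) and TGATGNAA (the element bound by ATF4 with a C/EBP partner), which Herpud1, Asns and Chac1 held. None of the 30 searched members held TGACGTGG, which 0.603% of all promoters hold. The windows of Xbp1, Atf4 and Dnajb11, 3 of the 4 genes with a low unadjusted p, held none of the 4 motifs. A match or its absence in this window is a description of letters only.

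Hspa5, which encodes BiP, the main Hsp70 chaperone of the ER, had 89.3, 145.9, 164.7, 150.8 and 178.8 CPM in dIEC replicates 1, 3, 5, 6 and 11, against 111.4, 122.3 and 143.9 CPM as the lowest, median and highest in WT. In dIEC 4 of the 5 libraries lay above the highest WT library, and replicate 1 lay below the lowest. The log2 fold change was 0.23 ± 0.16 (SE; edgeR adjusted p = 0.583; exact permutation p = 0.273). Without dIEC replicate 1 it was 0.36 (edgeR adjusted p = 0.639), and without dIEC replicate 11 it was 0.15.

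Dnajb11, a J-domain co-chaperone of BiP (ERdj3), had 18.4, 29.2, 32.2, 28.3 and 34.2 CPM in dIEC replicates 1, 3, 5, 6 and 11, against 16.9, 19.5 and 23.4 CPM as the lowest, median and highest in WT. As with Hspa5, dIEC replicates 3, 5, 6 and 11 lay above every WT library and replicate 1 among them. Dnajb11 had a log2 fold change of 0.52 ± 0.14 (SE; edgeR adjusted p = 0.427; exact permutation p = 0.0216), a 1.43-fold difference, and it ran from 0.32 to 0.64 over the other settings.

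Manf, a small ER protein that is secreted under stress, repeated this arrangement with 12.4, 24.1, 27.2, 24.4 and 26.9 CPM in dIEC replicates 1, 3, 5, 6 and 11, against 14.1, 20.3 and 21.8 CPM as the lowest, median and highest in WT. Again 4 dIEC libraries lay above all WT libraries and replicate 1 below all of them. For Manf the log2 fold change was 0.26 ± 0.18 (SE; edgeR adjusted p = 0.589), and 0.42 without dIEC replicate 1 (adjusted p = 0.639). Hyou1, which exchanges nucleotide on BiP, had 30.9, 59.0, 70.7, 76.5 and 70.3 CPM in dIEC replicates 1, 3, 5, 6 and 11, against 51.8, 55.0 and 61.9 CPM as the lowest, median and highest in WT. Here replicates 5, 6 and 11 lay above the highest WT library and replicate 1 below the lowest. Its log2 fold change was 0.13, and 0.30 without dIEC replicate 1 (adjusted p = 0.639). Left out, dIEC replicate 1 brought Hspa5, Hyou1 and Manf to an unadjusted edgeR p under 0.05 and took Herpud1 above it. That library was the lowest of all in Hspa5, Hyou1 and Manf and the highest in Herpud1, so these moves add no test of the groups. The share of all genes at that p without this library was not computed.

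The lectin chaperones Calr and Canx, which hold newly made glycoproteins, averaged 168.7 ± 37.3 and 237.7 ± 30.2 CPM in dIEC (SD, n = 5) and 151.4 ± 21.8 and 208.4 ± 27.4 CPM in WT (n = 6). Hsp90b1, the ER form of Hsp90, averaged 156.8 ± 34.6 CPM in dIEC and 145.4 ± 13.4 CPM in WT. The co-chaperone Dnajc3 averaged 51.8 ± 4.09 CPM in dIEC and 48.8 ± 5.04 CPM in WT, and the co-chaperone Dnajb9 11.6 ± 2.63 and 10.7 ± 2.37 CPM. None of these 5 genes differed beyond the spread of its group (exact permutation p of 0.123 to 0.591).

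Among the disulfide isomerases, P4hb, also a subunit of prolyl 4-hydroxylase and of the microsomal triglyceride transfer protein, had 323, 217, 215, 196 and 261 CPM in dIEC replicates 1, 3, 5, 6 and 11, against 171, 185 and 283 CPM as the lowest, median and highest in WT. Only dIEC replicate 1 lay above the highest WT library, WT replicate 8. Pdia6 had 17.7, 32.3, 35.5, 45.5 and 41.5 CPM in the same dIEC libraries, against 31.8, 35.2 and 41.7 CPM as the lowest, median and highest in WT, so that dIEC replicate 1 lay below and replicate 6 above all WT libraries. Pdia6 had a log2 fold change of -0.06, which was 0.11 without dIEC replicate 1, and that of Pdia4 was 0.01. The smaller stress-induced genes Sdf2l1, a partner of ERdj3, and Creld2 averaged 5.58 ± 1.98 and 8.67 ± 2.80 CPM in dIEC and 5.30 ± 0.853 and 7.88 ± 1.598 CPM in WT. Sec61a1 and Sec61b, subunits of the channel through which proteins enter the ER, averaged 86.8 ± 5.56 and 8.10 ± 0.953 CPM in dIEC and 78.0 ± 8.21 and 7.66 ± 1.27 CPM in WT. None of these 7 genes reached an exact permutation p of 0.05, the lowest being that of Sec61a1 (0.0736).

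Degradation genes comprised 8 members, all 8 with a log2 fold change above 0 (median 0.13) and 1, Herpud1, with an unadjusted edgeR p under 0.05. The shares of all genes were 48.8% above 0 and 10.7% at that p in either direction. Herpud1, a membrane protein that organises the degradation complex, is known as a target of both the ATF6 and the ATF4 arm, and its promoter was the only one of the 30 with ERSE-II letters, which 0.037% of all promoters hold. These letters lie 52 to 42 bases before the start. It also held the ATF4 letters TGATGNAA, which 3.91% of promoters hold, 112 to 105 bases before the start on the other strand, where they read TGATGcAA. Both are in capitals in its 250 bases at chr8:94386179-94386428 (GRCm38.p6, plus strand).
Herpud1: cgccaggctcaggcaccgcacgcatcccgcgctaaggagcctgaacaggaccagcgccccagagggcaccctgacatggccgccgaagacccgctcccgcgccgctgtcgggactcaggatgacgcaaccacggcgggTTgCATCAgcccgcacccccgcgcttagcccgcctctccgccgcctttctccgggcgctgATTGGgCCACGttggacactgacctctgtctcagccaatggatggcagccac

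Herpud1 had 72.3, 33.1, 28.8, 30.2 and 37.2 CPM in dIEC replicates 1, 3, 5, 6 and 11, against 19.3, 26.9 and 32.8 CPM as the lowest, median and highest in WT. Replicate 1 of dIEC stood far above all others, replicates 3 and 11 lay just above the highest WT library, and replicates 5 and 6 fell among WT libraries. Herpud1 had a log2 fold change of 0.63 ± 0.23 (SE; edgeR adjusted p = 0.427; exact permutation p = 0.0303), the largest among the 34 genes. Without dIEC replicate 1 it was 0.31 (adjusted p = 0.646). The library with the most Herpud1 was thus the one with the least Hspa5, Hyou1 and Manf.

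Sel1l and Syvn1, the adaptor and the ubiquitin ligase of the degradation complex, averaged 63.9 ± 5.08 and 26.5 ± 5.93 CPM in dIEC (SD, n = 5) and 58.3 ± 4.86 and 25.4 ± 3.17 CPM in WT (n = 6). Edem1 and Edem2, which mark glycoproteins for removal by trimming mannose, averaged 83.1 ± 11.8 and 17.6 ± 1.98 CPM in dIEC and 75.6 ± 11.03 and 16.2 ± 1.37 CPM in WT. The derlins Derl1 and Derl2, membrane proteins of the exit route, averaged 26.5 ± 2.16 and 16.2 ± 1.71 CPM in dIEC and 23.7 ± 1.90 and 14.5 ± 2.03 CPM in WT. These 6 genes had log2 fold changes of 0.06 to 0.17, and none reached an exact permutation p of 0.05, the lowest being that of Derl1 (0.0563). Derl3, the third derlin, had 1.44, 1.23, 2.23, 5.20 and 3.30 CPM in dIEC replicates 1, 3, 5, 6 and 11, against 1.04, 2.97 and 3.42 CPM as the lowest, median and highest in WT. Its values spread over the same range in both groups, dIEC replicate 6 being the highest, and the log2 fold change was 0.05 ± 0.39 (SE).

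The targets of ATF4 comprised 6 genes, of which 4 were tested, all 4 with a log2 fold change above 0 (median 0.34) and 0 with an unadjusted edgeR p under 0.05. Here too the shares of all genes were 48.8% and 10.7%. Asns, asparagine synthetase, had 15.1, 10.1, 8.92, 22.7 and 8.38 CPM in dIEC replicates 1, 3, 5, 6 and 11, against 6.07, 10.03 and 12.7 CPM as the lowest, median and highest in WT. Replicates 1 and 6 of dIEC lay above the highest WT library and the other 3 within the WT range. The log2 fold change was 0.44 ± 0.26 (SE; edgeR adjusted p = 0.541), and 0.15 without dIEC replicate 6.

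Ppp1r15a, the phosphatase subunit that ends the translational block (GADD34), had 5.75, 2.68, 6.48, 2.83 and 3.16 CPM in dIEC replicates 1, 3, 5, 6 and 11, against 2.27, 2.82 and 3.74 CPM as the lowest, median and highest in WT. Replicates 1 and 5 lay above all WT libraries, a different pair from Asns. Its log2 fold change was 0.48 ± 0.26 (SE; edgeR adjusted p = 0.494), 0.30 without dIEC replicate 5 and 0.32 without dIEC replicate 1. Ddit3, the transcription factor CHOP, averaged 4.82 ± 0.646 CPM in dIEC (SD, n = 5) and 4.07 ± 0.948 CPM in WT (n = 6). Sesn2, a sestrin that restrains growth signalling, averaged 4.52 ± 1.87 CPM in dIEC and 4.08 ± 0.955 CPM in WT, and neither gene differed beyond this spread (exact permutation p = 0.143 and 0.792).

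Chac1, an enzyme that degrades glutathione, had 13, 20, 13, 52 and 0 counts in dIEC replicates 1, 3, 5, 6 and 11, and 2 to 7 counts in WT libraries. Replicates 1, 3, 5 and 6 of dIEC lay above every WT library, replicate 6 with 8.19 CPM, and replicate 11 had no count where 3 counts would be the limit that a count of 0 allows. The groups therefore overlapped (exact permutation p = 0.0606). Without dIEC replicate 11 the groups no longer overlapped, so the p of 0.05 or lower found then follows from leaving that library out. Trib3 had 13, 7, 3, 20 and 5 counts in the same dIEC libraries and 0 to 12 counts in WT libraries, again with the most in dIEC replicate 6.

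The libraries of the dIEC group differed among themselves by role. Replicate 1 was the lowest of all 11 libraries in 9 of the 16 folding genes, yet the highest in P4hb, Sec61a1, Herpud1, Derl1, Atf6 and Sesn2. Replicates 11 and 6 were the highest in 6 and 5 of the 16, and replicate 6 was the highest in 3 of the 5 ATF4 targets measured, Asns, Ddit3 and Chac1. In WT, replicate 2 was the lowest of all libraries in 5 of the 16 folding genes and replicate 4 in 4 of the 8 degradation genes.

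**Figure D3:**
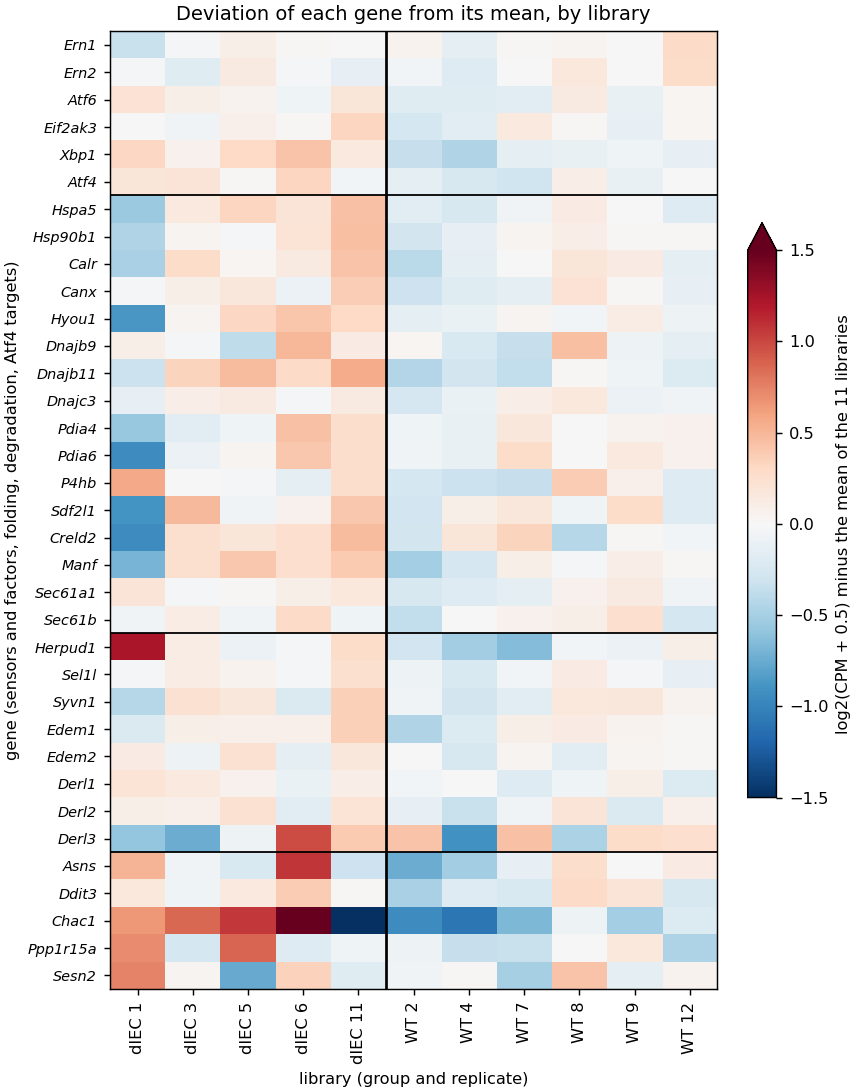
Deviation of log2(CPM + 0.5) from the mean of the 11 libraries (colour, red higher and blue lower) for the 35 genes with a mean of at least 1 CPM, by library, dIEC on the left. Black lines part the groups and the roles. The column of dIEC replicate 1 is blue in most folding genes and red in P4hb, Herpud1 and the ATF4 targets, and Xbp1 is red in all 5 dIEC columns.

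Across the 11 libraries, many folding genes were high where Hspa5 was high. Of 34 relations with Hspa5 on log2(CPM + 0.5), 12 had a permutation p of Pearson's r of 0.05 or lower after Benjamini-Hochberg adjustment over the 34, all 12 positive: Hsp90b1, Calr, Hyou1, Dnajb11, Dnajc3, Pdia6, Sdf2l1, Creld2, Manf, Sel1l, Syvn1 and Edem1. By Spearman's rho, 6 of them had such a p, Calr, Hyou1, Dnajb11, Dnajc3, Manf and Sel1l. In all, 104 such relations were computed in 3 families, all for members. None was computed over all genes, so these counts have no background share beside them. Manf had the highest coefficient (r = 0.90, rho = 0.90, adjusted permutation p = 0.004165 and 0.0123). Dnajb11 had r = 0.86 and rho = 0.85, and without the 2 libraries farthest from the median of Hspa5, dIEC replicates 1 and 11, r was 0.90. Without those 2, r was 0.79 for Manf and for Hyou1 and 0.81 for Sel1l. It was 0.69 for Calr, 0.68 for Dnajc3, 0.62 for Edem1, 0.58 for Hsp90b1 and 0.47 for Syvn1. It fell to 0.28 for Pdia6 and for Sdf2l1 and to 0.18 for Creld2, so the relations of these 3 genes with Hspa5 rest largely on those 2 libraries.

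Xbp1 itself had r = 0.33 with Hspa5 (rho = 0.50, adjusted permutation p = 0.521 and 0.257), and without the same 2 libraries r was 0.87. The dIEC libraries then left, replicates 3, 5 and 6, lay above every WT library in both genes. Within the WT libraries alone r was 0.70, and within the dIEC libraries alone it was -0.27. None of the 5 ATF4 targets had an adjusted p of 0.05 or lower in this family. Herpud1 had r = -0.28 (rho = 0.15), and 0.46 without dIEC replicates 1 and 11. Xbp1 counts per Hspa5 count were 0.654 ± 0.230 in dIEC (SD, n = 5) and 0.524 ± 0.0433 in WT (n = 6), with an exact permutation p of 0.193. This ratio was 1.05 in dIEC replicate 1 and 0.465 to 0.666 in the other dIEC libraries. Set against the summed counts of all 16 folding genes, Xbp1 had 69.3 ± 11.98 counts per 1000 in dIEC and 56.3 ± 4.17 in WT (exact permutation p = 0.0433).

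Some members moved with markers of a cell type, and a gene could do so and vary with Hspa5 as well. Canx, named below, had r = 0.67 with Hspa5 (rho = 0.70, adjusted permutation p = 0.0630 and 0.0703). P4hb had r = 0.91 with the summed absorptive enterocyte markers (rho = 0.94, adjusted permutation p = 0.00210 and 0.00455 over 35 relations), and r = 0.87 without WT replicates 7 and 8, the 2 libraries farthest from the median. Atf6 had r = 0.86 (rho = 0.87, adjusted p = 0.0269 and 0.0164 by permutation) and Canx r = 0.82 (rho = 0.84). Those markers summed to 3003 to 8470 CPM in dIEC libraries (median 6901) and to 2045 to 9084 CPM in WT libraries (median 2487). Their part in the values of these genes was not tested. Derl3 had r = 0.92 with the summed plasma cell markers other than itself (rho = 0.91, adjusted permutation p = 0.00560 and 0.00945 over 35 relations), and r = 0.89 without WT replicates 4 and 8. The plasma cell markers, led by Igha, Igkc and Jchain, summed to 913 to 2938 CPM in dIEC libraries (median 1435) and to 646 to 2466 CPM in WT libraries (median 1688), and no other member had an adjusted p of 0.05 or lower with them.

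**Figure D4:**
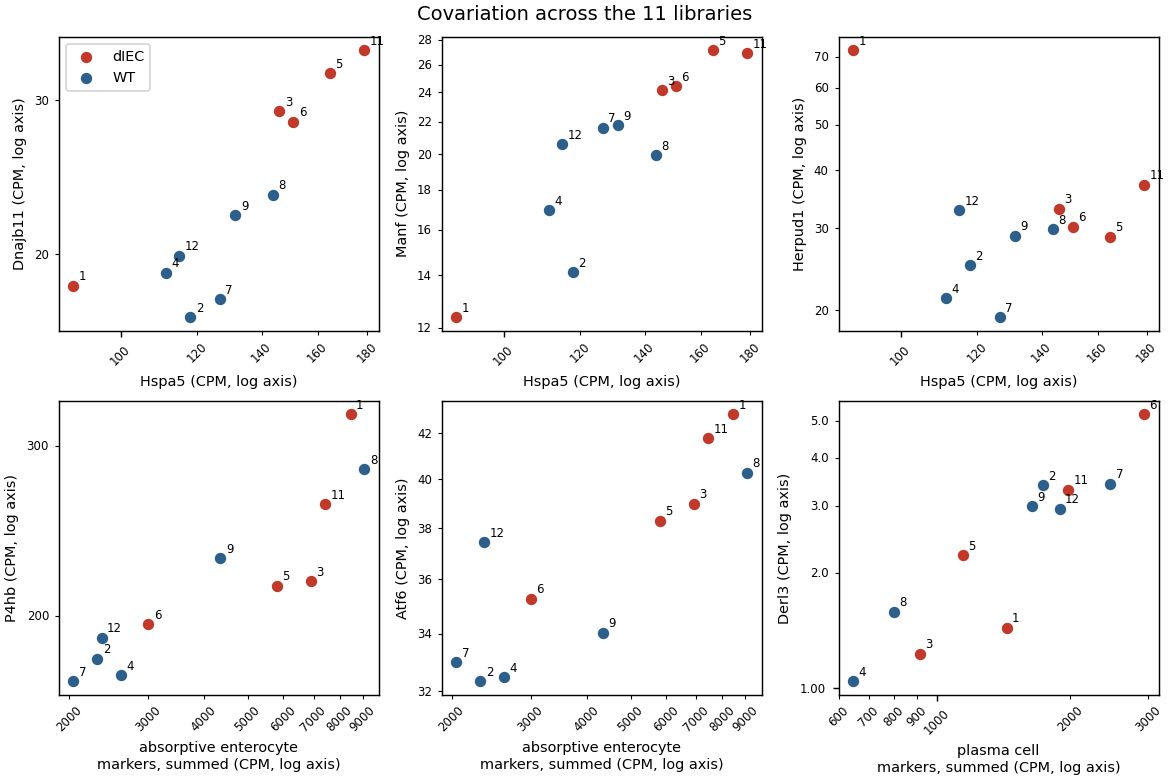
Each point is 1 of the 11 libraries (dIEC red, WT blue, with replicate numbers) on log axes in CPM. The upper panels set Dnajb11, Manf and Herpud1 against Hspa5, and the lower ones P4hb and Atf6 against summed absorptive enterocyte markers and Derl3 against summed plasma cell markers without Derl3; dIEC replicate 1 is at the low end of Hspa5 and the high end of Herpud1.

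Over all genes tested, 3.66% were higher and 4.75% lower in dIEC at an exact permutation p of 0.05 or lower on log2(CPM + 0.5). Of the 35 genes with a mean of at least 1 CPM, 5 were higher by this test (Atf6, Xbp1, Atf4, Dnajb11 and Herpud1) and 0 lower. Given how the members were chosen, this count is not read as an excess. That count was 9 with WT replicate 8 left out, 3 with WT replicate 2, 4 or 7 left out, and 2 (Xbp1 and Dnajb11) with dIEC replicate 3 left out. With a library left out, the share of all genes by this test was not computed, so these counts have no background beside them. With libraries scaled by size alone it was 1, Ern2, which was then lower in dIEC, as were 10.8% of all genes.

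Each gene's CPM + 0.5 was also set against the epithelial markers of the same library. Scaling enters this ratio only through the added 0.5 CPM, which weighs most in genes of low level such as Chac1. Here 29 of the 35 genes were lower in dIEC, as were 90.7% of all genes tested, so this direction was not particular to the members. The median log2 difference of this ratio was -0.16 over the 35 genes and -0.31 over all genes. For the levels themselves these medians were 0.14 and -0.012. The 6 genes above 0 were Xbp1, Dnajb11, Herpud1, Asns, Chac1 and Ppp1r15a. At an exact permutation p of 0.05 or lower, 0 of the 35 genes were higher and 0 lower in dIEC, against 0.497% and 12.7% of all genes. Xbp1 had 23.6 ± 5.09 CPM per 1000 CPM of epithelial markers in dIEC (SD, n = 5) and 20.9 ± 3.33 in WT (n = 6), a log2 difference of 0.16 (exact permutation p = 0.390). Dnajb11 had 7.52 ± 1.77 in dIEC and 6.45 ± 0.770 in WT, a log2 difference of 0.19 (exact permutation p = 0.312). Pdia6 had the lowest log2 difference, -0.41, with 9.20 ± 3.50 in dIEC and 11.7 ± 2.61 in WT (exact permutation p = 0.208). Ern2 had 5.02 ± 0.923 in dIEC and 6.51 ± 1.06 in WT, a log2 difference of -0.38 (exact permutation p = 0.0519).

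This count moved with single libraries. Without WT replicate 8, which had the most epithelial markers, 8 of the 35 genes were lower in dIEC (Ern1, Ern2, Atf6, Sec61a1, Sel1l, Syvn1, Edem2 and Derl1, with log2 differences of -0.50 to -0.19) and 0 higher, where 47.1% of all genes were lower and 0.968% higher. Without dIEC replicate 6 the count was 3, without dIEC replicate 1 it was 2 and without dIEC replicate 5 or 11 it was 1. For these dIEC settings the share of all genes was not computed. Relative to smooth muscle markers, whose sums ran lower in dIEC, all 35 genes had a log2 difference above 0 (0.28 to 1.68), as did 92.2% of all genes tested. Of the 35, 3 were higher at an exact permutation p of 0.05 or lower, against 2.83% of all genes, namely Xbp1 (0.85, p = 0.00866), Dnajb11 (0.88, p = 0.0108) and Chac1 (1.68, p = 0.0303). How far the makeup of the tissue enters the levels of these genes was not tested otherwise.

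Expressed per length, as mean CPM per kilobase of exons over the 11 libraries, some folding genes stood highest: P4hb 77.5, Calr 55.3, Canx 47.2, Hsp90b1 37.4 and Hspa5 31.7 CPM per kilobase. Xbp1 followed with 23.4 and Atf4 with 16.0, and the other folding genes lay below both, from Pdia4 with 14.9 to Dnajb9 with 4.37. The sensors Ern2, Atf6, Ern1 and Eif2ak3 had 6.54, 4.01, 3.79 and 2.75. Of the folding genes, Sec61b (6.19), Creld2 (6.03), Manf (5.93), Sdf2l1 (4.90) and Dnajb9 lay below Ern2. The ATF4 targets Sesn2, Ppp1r15a, Chac1 and Trib3 were at the low end, with 1.23, 1.19, 1.01 and 0.443. The order was set by mean values, and neighbours such as Sesn2 and Ppp1r15a differed by less than their SD between libraries (0.539 and 0.611 in dIEC, 0.275 and 0.192 in WT). Exons of 9 members overlap those of a gene on the other strand (Eif2ak3, Hsp90b1, Dnajb9, Pdia6, Manf, Sec61a1, Syvn1, Derl2 and Ppp1r15a), and the sources used here do not say whether the counting used strand. Exons of 3 members (Hsp90b1, Pdia4 and Manf) overlap those of another gene on their own strand, so their reads may have been shared or left out whatever the strand setting.

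Further genes of the same pathways were taken from 5 lists. By edgeR's adjusted test 0 genes of any list passed (0 by DESeq2 as well), and at an unadjusted edgeR p under 0.05 there were 5 in all, against 10.7% of all genes tested. The share of all genes with a log2 fold change above 0 was 48.8%. Of 26 further folding enzymes, 12 had a log2 fold change above 0 (median -0.0028), and Fkbp14, a proline isomerase that acts on collagen, was lower at an unadjusted p, with 1.65 ± 0.186 CPM in dIEC (SD, n = 5) and 2.72 ± 0.899 CPM in WT (n = 6). Fibroblast markers moved in the same direction, summing to 361 to 622 CPM in dIEC and to 376 to 1166 CPM in WT, and their part in this was not tested. Of 27 genes of the translocon, signal peptidase and N-glycosylation, 19 lay above 0 (median 0.06) and 0 reached that p. Of 21 further degradation genes, 16 lay above 0 (median 0.10), and the selenoprotein gene Selenok was higher, with 7.56 ± 0.925 CPM in dIEC and 6.23 ± 0.732 CPM in WT.

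The list of further genes of the integrated stress response, the branch that leads to ATF4, had 26 of 29 above 0 (median 0.19). Wars, a tryptophanyl-tRNA synthetase gene, was higher at an unadjusted p, with 35.4 ± 5.85 CPM in dIEC (SD, n = 5) and 28.8 ± 2.17 CPM in WT (n = 6). Stc2, a stanniocalcin gene, was lower, with 1.26 ± 0.795 CPM in dIEC and 2.29 ± 0.446 CPM in WT. Slc3a2, the heavy chain of amino acid transporters, had 36.1 ± 3.98 CPM in dIEC and 28.6 ± 7.84 CPM in WT and did not reach that p. Of 16 other ER stress factors and proteases, 8 lay above 0 (median 0.05). Creb3l3, a membrane-bound transcription factor of liver and small intestine, had 23.9 ± 17.2 CPM in dIEC and 10.6 ± 6.71 CPM in WT, with single dIEC libraries as far apart as 5.98 and 52.2 CPM. Tmbim6, an ER membrane protein that limits cell death, had 285 ± 57.4 CPM in dIEC and 218 ± 53.8 CPM in WT. The number of genes at an unadjusted p under 0.05 over the 5 lists moved with single libraries, to 2 without dIEC replicate 3, to 3 without WT replicate 4 or 12, to 12 without dIEC replicate 6 and to 16 without WT replicate 8. How many of all genes reached that p in these settings was not computed.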

How the data were processed

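RNA of the distal ileum was extracted from Trizol and made into directional libraries, per the labels' protocols. Reads were aligned with TopHat2 and the build was mm10, per the submitters' processing notes. The counting tool, strand setting and annotation were not given in the sources used here. Whole-number counts per gene were what the authors deposited, without normalization. A row with no gene name (0.00778 to 0.0147% of a library) was left out. In the design text both groups are Cre-negative; genotypes here follow each sample's own label.

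The 36 members, the 5 related lists and the marker lists were chosen with earlier results of these data known. Each library was taken as 1 mouse, and p-values of group differences weigh them against the spread between libraries. Libraries of a group all differed beyond sampling noise (chi-square over its degrees of freedom, 10.7 to 72.4). In R 4.3.3, filterByExpr of edgeR 4.0.16 kept 15911 genes, libraries were scaled with TMM factors, and the quasi-likelihood F test (robust) compared dIEC with WT, with Benjamini-Hochberg adjustment over all genes and a threshold of 0.05. DESeq2 1.42.0, limma-voom (limma 3.58.1), RLE factors, library size alone, no filter on low counts, non-robust dispersion, ribosomal rows and Lars2 left out, and each library left out were the alternatives. Exact permutation tests were two-sided, on log2(CPM + 0.5) over all 462 assignments of the libraries; correlations used 100000 resamples. Coordinates and exon lengths are from GENCODE vM21 (99.2% of symbols matched), promoter sequences from RefSeq (GRCm38.p6). Named were all members with a mean of at least 1 CPM, and from each related list the 2 genes with the lowest p above and the 2 below 0. Of the latter, those at an unadjusted p under 0.05 and all of the 2 lists described last are printed.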

Additional observations from a re-analysis of the deposited data

Results flagged for a closer look

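In 72 groups of values (the 35 genes with a mean of at least 1 CPM and H2-Ab1, in each genotype), 2 held a library far from the others of its group by Dixon's criterion, which chance alone gives in about 1 of 20 groups. Both came from dIEC replicate 1. Manf had 12.4 CPM there, and the next lowest dIEC library had 24.1 CPM. Herpud1 had 72.3 CPM there, and the next highest dIEC library had 37.2 CPM. In the same library the smooth muscle markers summed to 1453 CPM, the lowest of the 11 libraries, and the absorptive enterocyte markers to 8470 CPM, the highest of the dIEC libraries. Their part in these values was not tested.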

How the results depend on the processing

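No paired analysis was possible because dIEC and WT libraries share no replicate number. Over the 18 alternatives of the fit, 12 of the 34 genes kept the direction of their log2 fold change in all, and 27 kept it in all but scaling by library size alone. With library size alone, genes past the threshold were 2 (1 in the reported fit), members at an unadjusted p under 0.05 were 0 (4), the median of the members was -0.060, members with an exact permutation p of 0.05 or lower were 1 (Ern2), and 16 in place of 12 genes moved with Hspa5. H2-Ab1 then had -1.897 (adjusted p = 0.00636). The log2 fold changes that turned below 0 with library size alone were Atf6 -0.029, Eif2ak3 -0.082, Hsp90b1 -0.090, Calr -0.031, Canx -0.011, Hyou1 -0.085, Dnajb9 -0.060, Dnajc3 -0.13, Pdia4 -0.21, Sdf2l1 -0.11, Creld2 -0.088, Sec61a1 -0.061, Sec61b -0.14, Sel1l -0.066, Syvn1 -0.12, Edem1 -0.070, Edem2 -0.11, Derl1 -0.054, Derl2 -0.036, Derl3 -0.18 and Sesn2 -0.031. The median of all genes was then -0.22. Library size takes in the ribosomal rows and Lars2, whose shares were unequal between libraries. Their part in this turn was not tested. With DESeq2, 11 genes and 1 member passed, and H2-Ab1 had -1.67. With limma-voom, Pdia4 had -0.034 and Derl3 -0.045, and 8 genes of the related lists in place of 5 reached an unadjusted p under 0.05.

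With each library left out in turn, 1 to 319 genes passed (319, of which 213 higher, without WT replicate 8, and 1 without any other), and 0 to 1 members. H2-Ab1 ran from -1.87 to -1.55, members at an unadjusted p under 0.05 from 3 to 6, members with an exact permutation p of 0.05 or lower from 2 to 9, and by the ratio to epithelial markers from 0 to 8. By the ratio to smooth muscle markers they were 3. At unadjusted and exact permutation p-values, the share of all genes with a library left out was computed in 1 case. That was the ratio to epithelial markers without WT replicate 8. The log2 ratio of Xbp1 to Hspa5 counts ran from 0.078 without dIEC replicate 1 to 0.37 without dIEC replicate 11 (exact permutation p = 0.0333), and with all 16 folding genes in place of Hspa5 it was 0.29. Genes of the related lists at an unadjusted p under 0.05 ran from 2 to 16. Directions turned for Pdia6 (0.11) and Sesn2 (-0.050) without dIEC replicate 1 and for Sdf2l1 (-0.071) without dIEC replicate 3. Without dIEC replicate 6, Pdia4 had -0.12 and Derl3 -0.34. Without dIEC replicate 11, Hsp90b1 had -0.00043, Pdia4 -0.06, Sdf2l1 -0.02, Syvn1 -0.028 and Derl3 -0.05. Pdia4 had -0.01 without WT replicate 2 and -0.02 without WT replicate 4, and Derl3 had -0.13 without WT replicate 4 and -0.05 without WT replicate 8. The highest values with 1 library left out were 0.22 for Hsp90b1, 0.13 for Pdia4, 0.26 for Sdf2l1, 0.17 for Syvn1, 0.26 for Derl3 and 0.32 for Sesn2. The cause was not tested. Derl3, Chac1 and Trib3 had at most 33, 52 and 20 counts in a library, which limits their precision.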
